A study of Mus musculus with 12 samples.

Results

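Livers of wild-type C57BL/6 mice on a high-fat diet were compared with livers of wild-type C57BL/6 mice on chow, using 3 microarrays of each, which are 6 of the 12 arrays in the series. The high-fat group got 60% of its dietary energy from fat and the chow group 25%, and the series description states that the high-fat diet began after weaning. The other 6 arrays, 3 from HDAC6 knockout and 3 from HDAC9 knockout livers, entered the statistical model and serve here only as reference values, because the labels give no diet for them. HDAC6 and HDAC9 are histone deacetylases, enzymes that remove acetyl groups from proteins. Mice of all groups were female and 8 to 12 weeks old, and each array received material from 100 ng of total RNA from whole liver. The labels give no feeding state, time of day at collection, body weight or age at which each diet group was sampled within that range. Whether each numbered replicate was a separate mouse is not spelled out in the labels, and p-values then reflect only how far these samples spread.

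The liver takes up dietary fat, packages it into lipoproteins, oxidises it or turns it into ketone bodies, and makes glucose between meals. It also clears drugs and other foreign compounds with cytochrome P450 enzymes, carboxylesterases and epoxide hydrolase, several of which are induced by the nuclear receptors CAR (Nr1i3) and PXR (Nr1i2). Many liver transcripts rise and fall over the day under the circadian clock, with feeding as one of its cues. A second class, the immediate-early genes, is transcribed within minutes of a growth factor, stress or hormone signal, and its transcripts are short-lived.

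Expression was measured for 12393 genes, each by 1 probe set, as a log2 value, so that a difference of 1 is a doubling. Over all 22626 probe sets, array medians lay between 5.78 and 5.86. Across the same probe sets, pairs of high-fat arrays correlated at r = 0.9939 to 0.9975, pairs of chow arrays at 0.9905 to 0.996, and high-fat with chow arrays at 0.9884 to 0.9958. Hepatocyte markers were high under both diets: Alb, serum albumin, read between 14.16 and 14.20 on all 6 arrays, and 0 of 16 hepatocyte markers lay below the background level. That level was set at 5.35, the 90th percentile of the means of 36 genes without known expression in liver. In 52.6% of genes high-fat replicate 1 was the high-fat array farthest from the middle one, and in 44.7% chow replicate 2 was the chow array farthest from the middle one.

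Of the 12393 genes, 28 rose and 8 fell in the high-fat livers (limma, Benjamini-Hochberg adjusted p under 0.05), which is 0.29% of genes tested, 0.226% higher and 0.0646% lower. The largest changes were a fall of Cyp2b10, a drug-metabolising cytochrome P450, and a rise of Jun, a subunit of the AP-1 transcription factor. In 19 of the 36 genes the difference was more than 2-fold, and in all 36 the 3 high-fat arrays lay wholly above or wholly below the 3 chow arrays. Such separation occurred in 14.7% of all genes, 7.02% higher and 7.71% lower. The median log2 difference over all genes was -0.01, the median standard error (SE) was 0.124, and 1051 genes had an unadjusted p under 0.05. Single arrays mattered to the count. It was 17 without high-fat replicate 1, 13 without replicate 2 and 22 without replicate 3. It was 23 without chow replicate 1, 22 without replicate 2 and 33 without replicate 3. In total 10 genes, Cyp2b10, Dnase2a, Dntt, Dusp1, Gsap, Jun, Nnmt, Rgs1, Sgk1 and Zfp36, kept the call with each of the 6 arrays left out and under every processing alternative that measured them. Hmox1, Oaf, Slc22a7 and Slc26a4 lost the call whichever of the 6 arrays was dropped (adjusted p as high as 0.243), and 22 genes did so with between 1 and 5 of them. Among probe sets outside the gene table, 4 of 1555 with no symbol (0.257%) and 1 of 691 with several symbols (0.145%) passed, beside 38 of 20380 with 1 symbol (0.186%). At the threshold, Slc26a4, Oaf and Ephx1 were just inside with an adjusted p of 0.0498, while Psmb9 and Fes (0.0577) and Cyp3a25 (0.0599) were just outside.

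**Figure D1:**
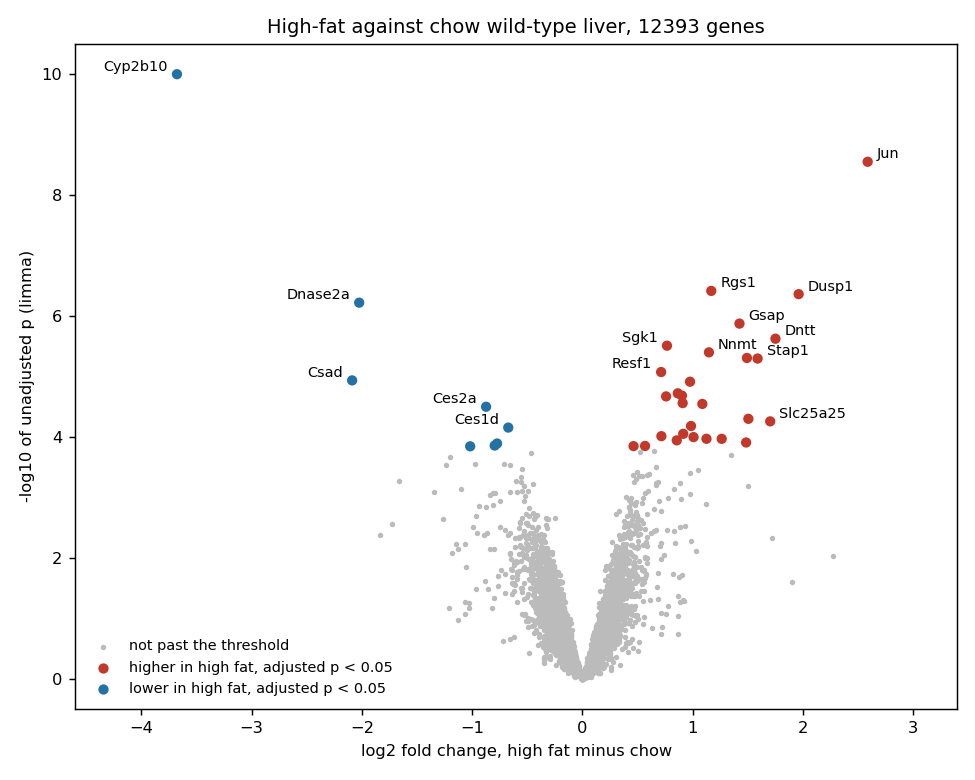
Each point is one of 12393 genes, with the log2 fold change (high fat minus chow) on the horizontal axis and −log10 of the unadjusted limma p on the vertical axis. Red points are the 28 genes past the threshold that rose and blue points the 8 that fell; Cyp2b10 and Jun stand at the far left and far right of the called genes.

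Immediate-early and stress response genes held the largest rises. Of 45 measured members of that list, 5 rose, 1 fell and 39 did not pass, beside 0.29% called among all genes. This list and the others below were chosen with earlier results of these data known, so such shares are descriptive and no test. Jun rose 6.00-fold, Dusp1, a phosphatase that switches off MAP kinases, 3.89-fold, and Zfp36, which targets short-lived messenger RNAs for decay, 2.81-fold. Slc25a25, a mitochondrial carrier of ATP-magnesium, rose 3.25-fold, and Sgk1, a kinase induced by serum and glucocorticoids, 1.70-fold. Myc, a transcription factor of growth, fell 1.71-fold. The median log2 difference of the 45 genes was 0.27 against -0.01 over all genes, and 36 of them had a higher mean in high fat, against 47.2% of all genes.

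The promoters of the 3 genes with the largest rises on this list are shown because these genes moved together, and each is the 250 bases before the transcription start, from RefSeq on build GRCm38.p6, 5′ to 3′ on the gene's strand. All lie on the minus strand: Jun at chr4:95052223-95052472, Dusp1 at chr17:26508473-26508722 and Slc25a25 at chr2:32424067-32424316, which is 1 of 3 Slc25a25 windows in the table. Capitals mark TGACGTCA, the consensus site of CREB-family factors, in Dusp1 and Slc25a25, and TGACATCA in Jun.
Jun: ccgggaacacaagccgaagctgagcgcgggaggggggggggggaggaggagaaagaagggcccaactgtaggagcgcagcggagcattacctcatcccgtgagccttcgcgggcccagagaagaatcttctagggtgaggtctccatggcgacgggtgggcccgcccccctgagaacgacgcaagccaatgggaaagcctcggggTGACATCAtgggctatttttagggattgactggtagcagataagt
Dusp1: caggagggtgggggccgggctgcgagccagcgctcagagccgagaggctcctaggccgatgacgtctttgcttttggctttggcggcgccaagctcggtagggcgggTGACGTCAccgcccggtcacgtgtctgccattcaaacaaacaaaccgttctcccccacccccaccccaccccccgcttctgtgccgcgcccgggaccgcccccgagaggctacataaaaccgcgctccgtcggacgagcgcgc
Slc25a25: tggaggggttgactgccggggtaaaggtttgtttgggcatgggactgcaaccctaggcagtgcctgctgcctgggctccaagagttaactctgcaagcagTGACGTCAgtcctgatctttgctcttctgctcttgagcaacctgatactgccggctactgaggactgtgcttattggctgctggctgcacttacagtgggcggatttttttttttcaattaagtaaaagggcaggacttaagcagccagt
The motif TGACGTCA began 143 bases before the start in Dusp1 and 150 bases before it in Slc25a25. It occurred, on either strand, in a window of 1.77% of the 27025 genes of the table, some of which have several windows, and of 2 of the 28 called genes with a window. Of the 3 Slc25a25 windows only the one shown held it, and the other 2 held none of the motifs searched. TGACATCA, a variant looked for after the sequences had been seen, began 45 bases before the Jun start and occurred in 3.41% of all genes of the table and in Jun and Dntt among called genes. The AP-1 motif TGACTCA (5.16% of genes) and 1 consensus form of the serum response element (0.074%) occurred in 0 of the 28. A match describes letters only and was not tested for binding.

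Jun read 8.70, 8.59 and 8.37 on high-fat replicates 1 to 3 and 5.94, 5.74 and 6.21 on chow replicates 1 to 3 (log2 difference 2.59, SE 0.201, adjusted p = 1.78e-05). The gap between the groups exceeded 2 log2 units, and the second Jun probe set gave 1.46 (adjusted p = 0.00199 over all probe sets). Dusp1 read 10.86, 11.07 and 10.49 in high fat and 8.53, 9.33 and 8.67 in chow (1.96, SE 0.226, adjusted p = 0.00137). Chow replicate 2 was the highest chow array for Dusp1 and still lay below every high-fat array. Zfp36 read 10.38, 10.31 and 10.77 against 9.08, 9.41 and 8.48 (1.49, SE 0.211, adjusted p = 0.00578). Sgk1 read 8.998, 9.21 and 9.32 against 8.33, 8.46 and 8.44, a smaller change with tight groups (0.77, SE 0.104, adjusted p = 0.00487). Of 18 other glucocorticoid targets and metallothioneins 0 passed and 10 had an unadjusted p under 0.05 (8.48% of all genes). Their means were higher in 10 and lower in 8. Mt2 had a difference of -1.83 (adjusted p = 0.269) and Zbtb16, near background, -1.10 (adjusted p = 0.1325). Rgs16 had 1.71 (adjusted p = 0.2785) and Tat 0.51 (adjusted p = 0.2425).

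Slc25a25 read 9.67, 9.60 and 9.16 in high fat and 8.24, 6.81 and 8.28 in chow (1.70, SE 0.302, adjusted p = 0.0316). Chow replicate 2 was far below the other chow arrays, and the call ended without high-fat replicate 1 or 2, with adjusted p up to 0.164. Myc, whose high-fat mean was near background, read 4.85, 4.92 and 4.90 against 5.97, 5.62 and 5.42 (-0.77, SE 0.150, adjusted p = 0.0498). The Myc call ended when any array other than chow replicate 3 was dropped, with its adjusted p then as high as 0.200.

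Other classical immediate-early genes, chosen here after their values were seen, did not pass. Junb, a relative of Jun, read 7.71, 6.89 and 7.51 against 6.66, 5.74 and 5.66 (1.34, adjusted p = 0.0616). Fos, the partner of Jun in AP-1, had a log2 difference of 0.98 (adjusted p = 0.137), and Btg2, an antiproliferative gene, 0.90 (adjusted p = 0.155). In these 3 genes the groups did not overlap. Egr1, an early zinc-finger factor, overlapped widely, at 9.09, 8.46 and 9.82 against 9.94, 9.16 and 7.67 (0.20, adjusted p = 0.919). Ier2 (0.18, adjusted p = 0.840) and Gadd45b (-0.03, adjusted p = 0.970) also overlapped. The high values of Jun, Dusp1 and Zfp36 were therefore not accompanied by a called rise of Fos, Egr1 or Ier2.

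**Figure D2:**
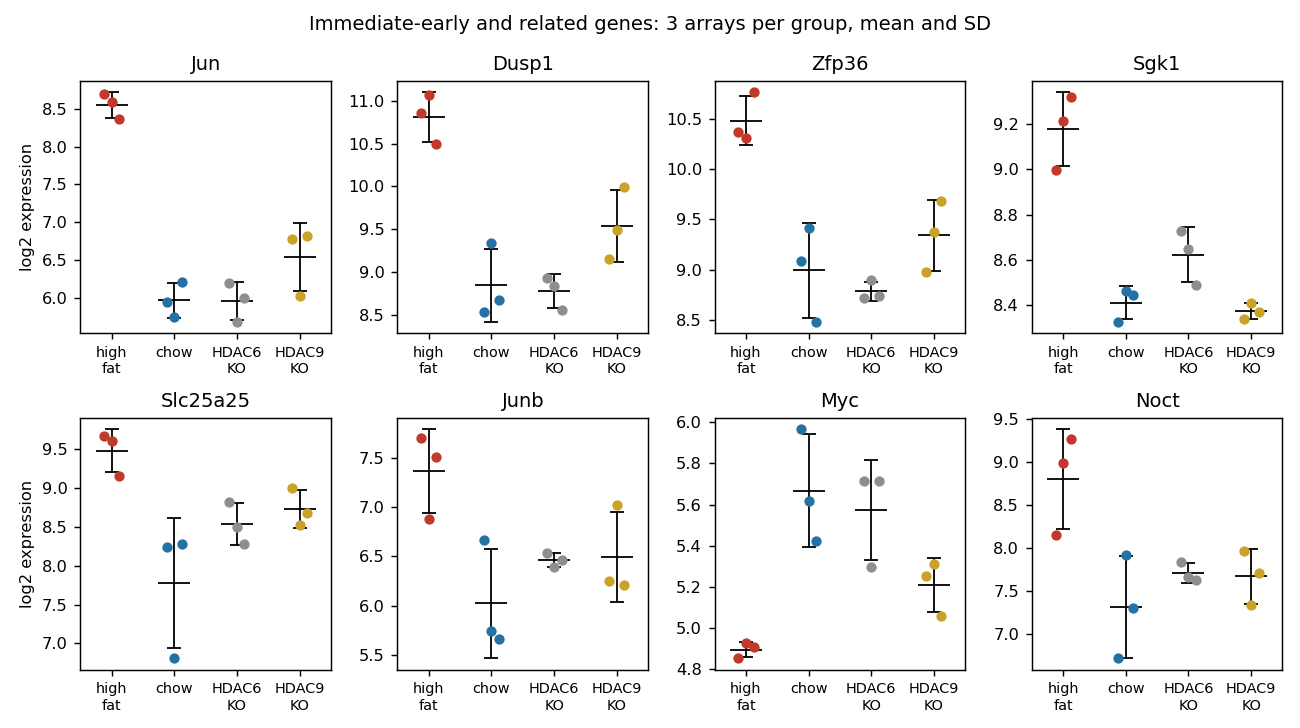
Log2 expression of 8 genes on the 3 arrays of each of the 4 groups, with the group mean and SD as bars. Jun is between 8.37 and 8.70 in the high-fat arrays and at most 6.21 in the chow arrays, Myc is lower in high fat, and Junb did not pass the threshold.

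Genes of drug metabolism showed the deepest fall. Cyp2b10, the textbook target of CAR in mouse liver, fell 12.8-fold, Ephx1, the microsomal epoxide hydrolase, 2.03-fold, and Ces2a, a carboxylesterase, 1.83-fold, while Cyp2c38, a P450 of the Cyp2c family, rose 1.87-fold. Of 36 measured members of the list of CAR and PXR with their targets, 3 fell (0.0646% of all genes), 1 rose (0.226%) and 32 did not pass. The list's median was -0.18, and 18 of the 36 had all high-fat arrays below all chow arrays against 7.71% of all genes. The receptors themselves did not pass: Nr1i3 had a difference of 0.28 (adjusted p = 0.794) and Nr1i2 of 0.10 (adjusted p = 0.902), which turned to -0.17 without chow replicate 2.

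The promoters of the 2 genes with the largest falls on this list are shown for the same reason, again as the 250 bases before the start in RefSeq's GRCm38.p6. Cyp2b10 lies at chr7:25897408-25897657 on the plus strand and Ephx1 at chr1:181017570-181017819 on the minus strand, and capitals mark TATAAA, the TATA-box core.
Cyp2b10: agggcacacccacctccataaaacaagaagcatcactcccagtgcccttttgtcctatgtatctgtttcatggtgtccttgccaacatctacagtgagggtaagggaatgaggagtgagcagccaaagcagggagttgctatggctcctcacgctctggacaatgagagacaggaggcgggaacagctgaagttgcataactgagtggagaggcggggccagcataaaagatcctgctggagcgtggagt
Ephx1: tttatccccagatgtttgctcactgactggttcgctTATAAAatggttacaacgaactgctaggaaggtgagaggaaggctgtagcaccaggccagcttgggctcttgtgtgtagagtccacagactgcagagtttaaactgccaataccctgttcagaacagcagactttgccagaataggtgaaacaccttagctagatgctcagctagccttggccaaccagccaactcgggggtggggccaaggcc
TATAAA began 214 bases before the Ephx1 start. It occurred in 3872 of the 27025 genes of the table and in 7 of the 28 called genes with a window, and none of the motifs searched occurred in the Cyp2b10 window.

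Cyp2b10 read 5.005, 5.69 and 5.32 on the high-fat arrays and 8.94, 8.99 and 9.10 on the chow arrays (-3.68, SE 0.223, adjusted p = 1.27e-06). The high-fat mean of 5.34 was at the background level, so the size of the fall is limited from below by that floor. The 2 further Cyp2b10 probe sets fell by 3.84 and 2.83 on the log2 scale. The 2 related genes Cyp2b9 and Cyp2b13, chosen after their values were seen, did not fall with it: Cyp2b9 read 11.42, 11.96 and 12.07 against 11.42, 11.74 and 11.75 (0.18, adjusted p = 0.802), and Cyp2b13 had a difference of 0.51 (adjusted p = 0.787). Members of such P450 and carboxylesterase families are close in sequence, and probes can read more than 1 of them.

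Ces2a read 10.08, 10.21 and 10.62 against 11.38, 10.93 and 11.22 (-0.87, SE 0.147, adjusted p = 0.0199). Its call ended without high-fat replicate 1 or 2 or chow replicate 1 or 3, with adjusted p up to 0.120. Ephx1 read 9.94, 10.11 and 9.99 against 11.36, 11.08 and 10.64, with closely spaced high-fat arrays and spread chow arrays (-1.02, SE 0.199, adjusted p = 0.0498). Its call ended without any array but chow replicate 3, with adjusted p up to 0.219. Cyp2c38 went the other way, at 10.07, 10.24 and 10.04 against 9.55, 9.24 and 8.86 (0.90, SE 0.146, adjusted p = 0.0158), and was lost without high-fat replicate 1 or 2 or chow replicate 2 (adjusted p up to 0.103). Another carboxylesterase, Ces1d, which hydrolyses triglyceride and drugs and was outside the list, fell 1.59-fold, from 11.85, 12.00 and 11.72 in chow to 10.89, 11.35 and 11.31 (-0.67, SE 0.122, adjusted p = 0.0367). The Ces1d call ended without any array but chow replicate 3 (adjusted p up to 0.138).

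Further members, chosen after their values were seen, were lower in every high-fat array without passing. Cyp3a25, a P450 of the Cyp3a family, read 12.16, 12.05 and 12.41 against 12.59, 12.71 and 12.74 (-0.47, adjusted p = 0.0599). Cyp2c55, a P450 inducible through CAR and PXR, read 4.87, 4.89 and 5.43 against 6.42, 7.34 and 6.43 (-1.67, adjusted p = 0.114). Alas1, the first enzyme of heme synthesis, read 10.01, 10.62 and 10.69 against 10.93, 11.31 and 11.33 (-0.75, adjusted p = 0.156). Cyp3a16 had a mean difference of 1.899 in the other direction, but its arrays overlapped and chow replicate 1 stood apart at 4.56 (adjusted p = 0.490).

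**Figure D3:**
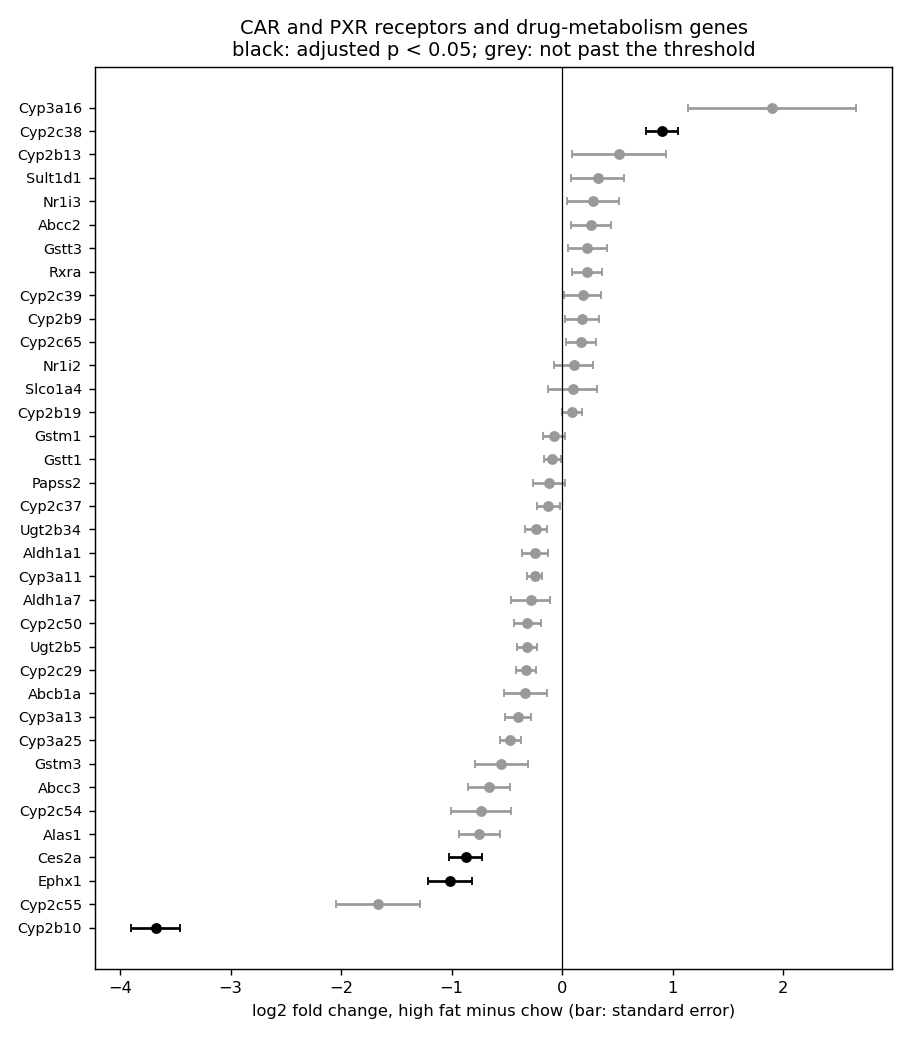
Log2 fold change (high fat minus chow, horizontal axis) of the 36 measured genes of the CAR and PXR list, with bars for the standard error; black points passed the threshold. Cyp2b10 lies at -3.68, far below Ces2a and Ephx1, and Cyp2c38 is the black point above 0.

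Lipid handling changed in single genes. Fads2, the delta-6 desaturase that makes long-chain polyunsaturated fatty acids, rose 2.40-fold, Fabp2, a fatty acid-binding protein best known from intestine, 1.98-fold, Apoa4, an apolipoprotein made by intestine and liver, 1.97-fold, and Bdh1, the enzyme that interconverts the ketone bodies, 1.69-fold. Each was the one call of its list: 1 of 28 genes of fatty acid and triglyceride synthesis, 1 of 27 of fatty acid uptake and lipid droplets, 1 of 20 apolipoprotein genes, and 1 of 23 of beta-oxidation and ketogenesis, beside 0.29% of all genes. No gene passed among 24 of cholesterol synthesis and uptake, 27 inducible targets of PPAR-alpha, the receptor that fatty acids activate, or 41 subunits of oxidative phosphorylation.

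Apoa4 read 11.40, 11.58 and 11.41 against 10.54, 10.42 and 10.50, with both groups tight (0.98, SE 0.150, adjusted p = 0.0110). Its second probe set gave 1.20, and the call ended without high-fat replicate 2 or chow replicate 2 (adjusted p up to 0.0704). Fabp2 read 11.78, 11.08 and 10.97 against 10.38, 10.24 and 10.25 (0.98, SE 0.178, adjusted p = 0.0360), with high-fat replicate 1 highest. It was lost without any array but high-fat replicate 3 (adjusted p up to 0.117). Bdh1 read 11.64, 11.79 and 11.47 against 10.90, 10.75 and 10.97 (0.76, SE 0.123, adjusted p = 0.0158), and was lost without replicate 1 or 2 of either group (adjusted p up to 0.106).

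Fads2 read 10.98, 11.23 and 11.22 in high fat and 10.31, 9.07 and 10.27 in chow (1.26, SE 0.239, adjusted p = 0.0465). Chow replicate 2 lay more than 1 unit below the other chow arrays, and the call ended without any 1 high-fat array (adjusted p up to 0.171). The second Fads2 probe set gave 0.94 (adjusted p = 0.00872 over all probe sets). Fads1 (0.42, adjusted p = 0.155), Elovl5 (0.33, adjusted p = 0.199) and Elovl2 (0.31, adjusted p = 0.431), the other enzymes of polyunsaturated fatty acid synthesis, were higher in every high-fat array but did not pass. Srebf1, the regulator of lipogenesis, overlapped between groups (0.33, adjusted p = 0.779). Fasn, fatty acid synthase, and Plin2, the coat protein of lipid droplets, both chosen after their values were seen, had differences of 0.11 (adjusted p = 0.944) and 0.04 (adjusted p = 0.960).

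Among PPAR-alpha targets the smallest p-values belonged to genes with lower means. Cyp4a14, a fatty acid omega-hydroxylase, read 11.21, 11.48 and 10.46 against 11.99, 11.66 and 12.39 (-0.97, adjusted p = 0.212). Pdk4, the kinase that blocks entry of pyruvate into the citric acid cycle, read 6.22, 6.52 and 5.79 against 7.54, 6.89 and 7.65 (-1.18, adjusted p = 0.344). Ppara itself had a difference of 0.15 (adjusted p = 0.839) and Cpt1a, the gatekeeper of mitochondrial fatty acid entry, 0.43 (adjusted p = 0.630). Of the 27 targets 13 had higher and 14 lower means, near the share over all genes.

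Glucose output was represented by G6pc, the catalytic subunit of glucose-6-phosphatase, which rose 1.88-fold. It was the single call among 22 genes of gluconeogenesis, glycolysis and glycogen, beside 0.29% of all genes. It read 11.50, 12.10 and 11.48 against 10.69, 10.71 and 10.94 (0.91, SE 0.170, adjusted p = 0.0447), with replicate 2 highest of the high-fat arrays. The call ended without any array but high-fat replicate 3 (adjusted p up to 0.163). Pck1, the other control enzyme of gluconeogenesis, had a difference of 0.56 (adjusted p = 0.431). Of 24 genes of insulin and FOXO1 signalling 0 passed and 3 had an unadjusted p under 0.05 (8.48% of all genes). Igfbp1, a secreted binding protein that insulin represses, read 11.28, 11.02 and 10.68 against 10.53, 9.66 and 9.43 (1.12, adjusted p = 0.168), and Foxo1 overlapped (-0.32, adjusted p = 0.519). From HDAC6 and HDAC9 knockout Igfbp1 differed by 0.27 (adjusted p = 0.918) and 0.20 (adjusted p = 0.947).

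Among the other large changes were 2 falls of about 4-fold. Csad, the decarboxylase that makes hypotaurine on the way to taurine, fell 4.25-fold, from 11.35, 10.61 and 9.63 on the chow arrays to 8.56, 8.37 and 8.38 (-2.09, SE 0.319, adjusted p = 0.0110). The chow arrays spread over more than 1 unit while the high-fat arrays lay together, and the call ended without high-fat replicate 1 or 2 or chow replicate 2 (adjusted p up to 0.0617). It was the single call among 18 genes of sulfur amino acid and taurine metabolism, beside 0.29% of all genes. Cdo1, the step before Csad, chosen after its values were seen, had a difference of -0.01 (adjusted p = 0.992), and Baat, which joins taurine to bile acids, -0.27 (adjusted p = 0.353). Dnase2a, the lysosomal DNase II, fell 4.07-fold, from 9.62, 9.45 and 8.70 to 7.29, 7.12 and 7.28 (-2.02, SE 0.240, adjusted p = 0.00152). Its 1 probe set has a suffix that marks probes shared with other transcripts.

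Nnmt, which methylates nicotinamide and consumes S-adenosylmethionine, rose 2.21-fold, at 11.10, 10.58 and 10.71 against 9.78, 9.48 and 9.69 (1.15, SE 0.159, adjusted p = 0.00558). Hmox1, heme oxygenase, rose 2.18-fold from a low level, at 6.72, 6.74 and 6.49 against 5.74, 5.48 and 5.36 (1.12, SE 0.213, adjusted p = 0.0465). It was the only call among 32 genes of glutathione and NRF2 antioxidant defence (0.29% of all genes), whose median was -0.03. The Hmox1 call was lost with any array left out (adjusted p up to 0.199). Of 33 genes of amino acid catabolism and the urea cycle 0 passed and 10 had an unadjusted p under 0.05 (8.48% of all genes). Their means were higher in 25 genes (47.2% of all genes), led by p-value by Ftcd of histidine breakdown (0.42, adjusted p = 0.180) and Agxt of glyoxylate metabolism (0.49, adjusted p = 0.212).

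Clock genes differed between arrays within the chow group, and some also separated by diet. Noct, nocturnin, whose transcript is strongly rhythmic in liver, was the single call among 22 clock and output genes (0.29% of all genes). Of the 22 genes, 10 had an unadjusted p under 0.05 (8.48% of all genes). In 5 every high-fat array lay above every chow array and in 3 below (7.02% and 7.71% of all genes). Noct rose 2.80-fold, at 8.15, 8.98 and 9.27 against 6.73, 7.92 and 7.30 (1.48, SE 0.285, adjusted p = 0.0498). It was lost without high-fat replicate 2 or 3 or chow replicate 1 or 3 (adjusted p up to 0.213). Dbp, a direct output of the clock chosen after its values were seen, read 8.18, 8.20 and 9.71 in high fat and 5.33, 8.10 and 5.85 in chow (2.27, adjusted p = 0.362). Chow replicate 2 thus read as high-fat replicates 1 and 2 did, more than 2 units above the other chow arrays. Arntl, the positive arm of the clock, ran opposite, at 6.28, 6.15 and 5.51 against 7.66, 6.43 and 7.23 (-1.13, adjusted p = 0.322). Nfil3, a repressor of the same output sites as Dbp, read 7.66, 7.82 and 7.32 against 9.18, 8.52 and 8.72 (-1.20, adjusted p = 0.0659). Nr1d1, the repressor REV-ERB alpha, read 7.12, 6.66 and 7.36 against 5.95, 6.53 and 6.00 (0.89, adjusted p = 0.243). The part of these clock differences in any other result was not tested.

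Transcripts of immune cells had mostly higher means, with few calls. Of 36 genes of the interferon response and immunoproteasome 1 passed (0.29% of all genes), and 34 had a higher mean in high fat (47.2% of all genes), with a median of 0.22. Gbp3, an interferon-induced GTPase, rose 1.81-fold, at 8.37, 8.66 and 8.79 against 7.40, 7.88 and 7.98 (0.86, SE 0.163, adjusted p = 0.0477), and was lost without any array but chow replicate 3 (adjusted p up to 0.213). Psmb9, a subunit of the immunoproteasome, did not pass, at 8.93, 8.72 and 8.74 against 8.25, 8.15 and 8.07 (0.65, adjusted p = 0.0577). High fat differed from HDAC6 and HDAC9 knockout by 0.16 (adjusted p = 0.879) and 0.17 (adjusted p = 0.867) in Psmb9. Psmb8 (0.48, adjusted p = 0.174) and Oas1a (0.48, adjusted p = 0.164) were also higher in each high-fat array.

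Of 27 markers of Kupffer cells, the resident liver macrophages, 0 passed, 10 had an unadjusted p under 0.05 (8.48% of all genes) and 24 had a higher mean (median 0.23). The median deviation of the list from the mean of the 6 arrays was 0.20, 0.15 and 0.01 on the high-fat arrays and -0.12, 0.09 and -0.31 on the chow arrays, so chow replicate 2 lay among the high-fat arrays. Marco, a scavenger receptor, read 7.41, 7.24 and 6.96 against 5.89, 6.57 and 6.01 (1.04, adjusted p = 0.0930). For Marco the difference from HDAC6 knockout was 0.08 (adjusted p = 0.9775) and from HDAC9 knockout 0.51 (adjusted p = 0.574). Cd68, a lysosomal macrophage protein, read 7.61, 7.58 and 7.28 against 6.98, 6.87 and 6.82 (0.60, adjusted p = 0.101). Cd5l was also higher in each high-fat array (0.55, adjusted p = 0.150). Cd9 went the other way, at 6.86, 6.97 and 6.84 against 7.95, 8.01 and 7.31 (-0.87, adjusted p = 0.268). The defining markers Adgre1 (0.32, adjusted p = 0.660) and Clec4f (0.36, adjusted p = 0.490) overlapped. The summed linear level of the list was 15700 to 17800 in high fat and 12800 to 16600 in chow. In whole tissue, more cells of a type and more RNA per cell cannot be told apart.

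The lymphocyte list held 2 calls of 29 measured genes (0.29% of all genes), with 24 higher means (47.2% of all genes) and a summed level of 1230 to 1490 in high fat against 871 to 1130 in chow. Without the 2 called genes the sums overlapped, at 995 to 1160 in high fat and 797 to 1030 in chow. Dntt, a DNA polymerase of lymphocyte precursors, rose 3.36-fold, at 8.13, 7.56 and 7.30 against 5.92, 6.29 and 5.53 (1.75, SE 0.233, adjusted p = 0.00427), and its 2 further probe sets gave 0.94 and 1.36. Stap1, an adaptor of B-cell signalling, rose 3.01-fold from background, at 5.79, 5.59 and 5.51 against 3.81, 4.28 and 4.04 (1.59, SE 0.225, adjusted p = 0.00578), and was lost without high-fat replicate 1 (adjusted p = 0.0506). Rgs1, a regulator of G-protein signalling prominent in lymphocytes and macrophages, rose 2.25-fold from background, at 6.14, 5.90 and 5.64 against 4.76, 4.60 and 4.82 (1.17, SE 0.133, adjusted p = 0.00137). The other precursor genes Rag1 (2.50 to 2.68 in high fat) and Vpreb1 (3.69 to 3.84), chosen after their values were seen, lay at background, and 18 of the 29 list members were below the background level. The T-cell marker Cd3e overlapped (0.19, adjusted p = 0.761).

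Markers of other cells were read for what the tissue pieces might hold. The summed level of 18 exocrine pancreas genes was 991 to 1730 in high fat and 602 to 737 in chow. Cela1, an elastase, carried that gap, at 10.41, 9.90 and 9.37 against 8.72, 8.33 and 8.12 (1.501, adjusted p = 0.119), and without it the sums overlapped, at 329 to 369 against 315 to 334. The defining pancreatic marker Prss2 read 4.80 to 5.09 on the 6 arrays, below the background level, and 15 of the 18 members had means below it. The defining adipocyte marker Adipoq read 2.68 to 3.05, also at background, while 10 of 12 adipocyte genes had a higher mean. Their summed level was 18100 to 20700 against 16800 to 18500, and these ranges overlapped. Of the 12 genes 6 were below the background level, and the list includes Pck1 of gluconeogenesis, at 11.50 to 11.94 against 10.70 to 11.41. The 36 genes without known expression in liver summed higher in every high-fat array, at 950 to 1020 against 882 to 930. Their median difference was -0.01, however, with 17 higher and 19 lower means, and no single gene was removed from this sum. Neutrophil S100a8 overlapped (0.15, adjusted p = 0.921). The summed neutrophil level was 522 to 687 against 437 to 542, and that of MHC class II genes 3120 to 4190 against 2440 to 4450. Outside these 6 arrays, HDAC9 knockout replicate 2 read 8.87 for Prss2, 9.29 for Ctrb1, another pancreatic enzyme, 9.99 for Cela1 and 4.96 for Adipoq. That array entered the fit behind the adjusted p-values given here, including that of Cela1. The part of any of these cells in the called genes was not tested.

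Growth hormone and sex-biased genes gave 1 call. Of 14 genes of the growth hormone and STAT5 axis 0 passed, 3 had an unadjusted p under 0.05 (8.48% of all genes) and 13 had a lower mean (52.8% of all genes), with a median of -0.32. Socs2, a feedback inhibitor induced by STAT5, read 9.28, 9.01 and 8.41 against 9.87, 9.66 and 10.37 (-1.07, adjusted p = 0.314). Egfr, the receptor of epidermal growth factor, read 8.09, 8.42 and 8.77 against 10.04, 9.35 and 8.46 and overlapped (-0.86, adjusted p = 0.526), and Ghr, the growth hormone receptor, had a difference of -0.03. Of 17 genes higher in male liver 0 passed, 7 had an unadjusted p under 0.05 and 15 had lower means (median -0.30), while Serpina12, an adipokine, had a higher one (0.93, adjusted p = 0.243). Keg1 read 9.65, 9.64 and 9.20 against 10.28, 10.26 and 9.92 (-0.66, adjusted p = 0.134), and Ugt2b1 had a difference of -0.35 (adjusted p = 0.269). Ugt2b38, a glucuronosyltransferase, read 3.95, 4.37 and 4.28 against 6.63, 5.74 and 5.41 (-1.73, adjusted p = 0.239). Its high-fat arrays lay below the background level, so the size of that difference is limited by the floor. In HDAC6 and HDAC9 knockout against chow, Keg1 had differences of -0.63 and -0.42 and Ugt2b1 of -0.39 and -0.67. In the same order Ugt2b38 had -1.42 and -0.57, Serpina12 0.05 and 0.15, Socs2 -0.85 and -0.73, and Ghr 0.02 and -0.23. Of these only Ugt2b1 in HDAC9 knockout passed (adjusted p = 0.0377). Of 19 genes higher in female liver only Ntrk2, the receptor of BDNF, passed: it rose 2.12-fold, at 7.87, 8.17 and 8.17 against 6.71, 7.39 and 6.86 (1.09, SE 0.181, adjusted p = 0.0188). A second Ntrk2 probe set read at background and gave 0.08, and the call ended without high-fat replicate 2 or 3 or chow replicate 1 or 3 (adjusted p up to 0.114).

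**Figure D4:**
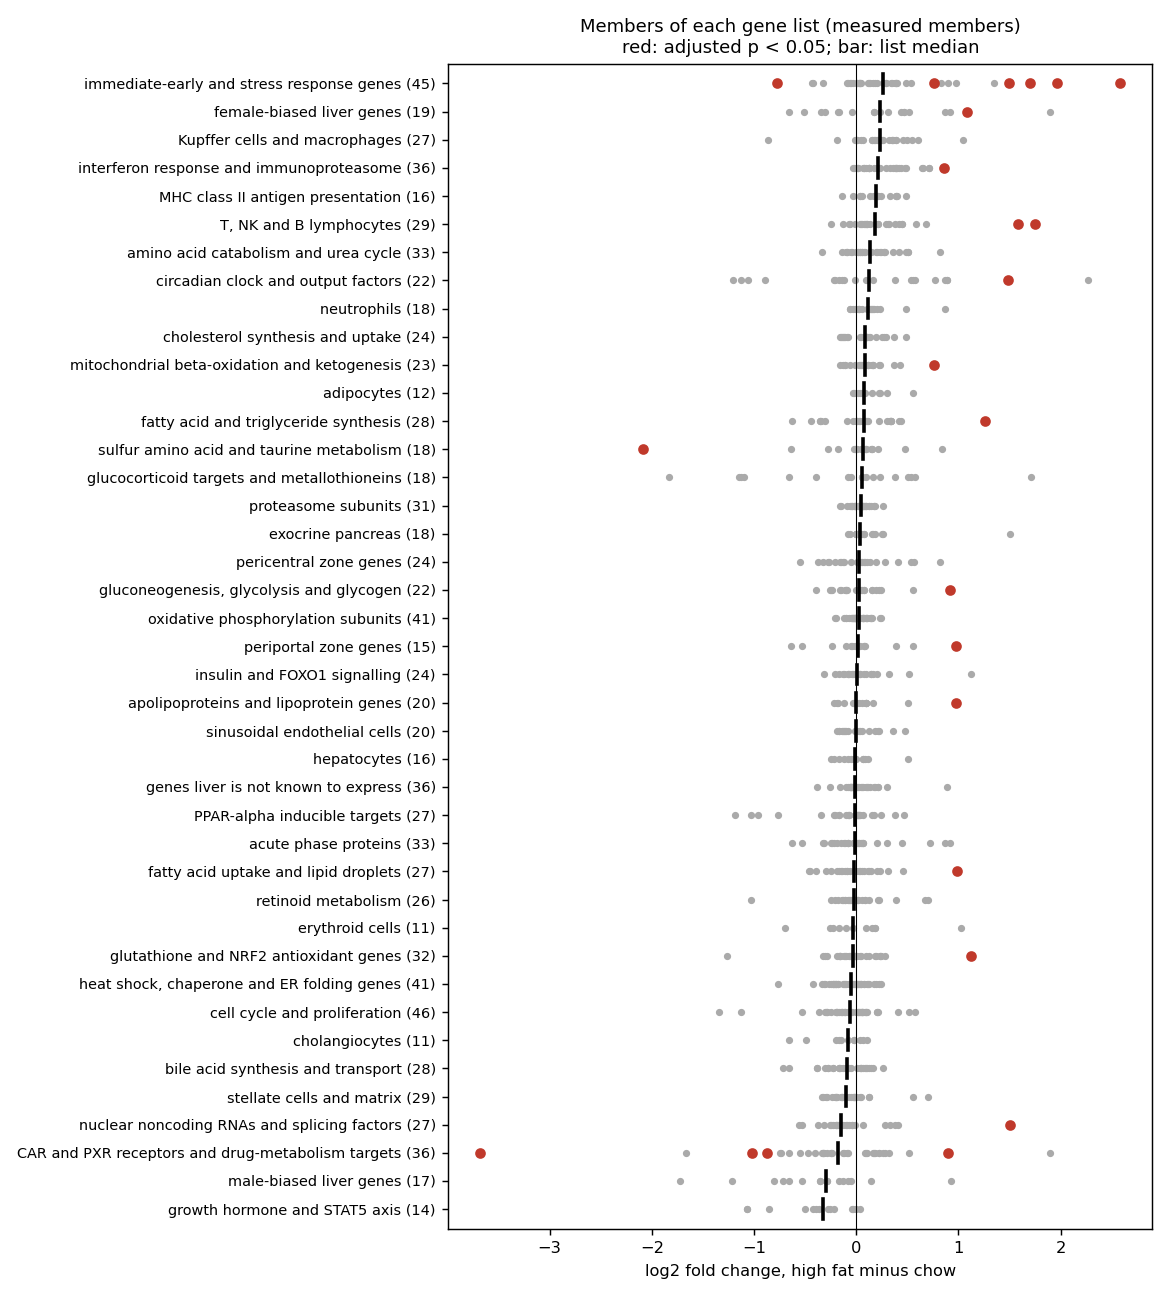
Log2 fold change (high fat minus chow) of every measured member of the 41 gene lists, one list per line with its number of measured genes; red points passed the threshold and black bars are list medians. Medians run from -0.32 for the growth hormone axis to 0.27 for immediate-early genes, and 15 of the 41 lists hold a red point.

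The remaining called genes have varied roles. Malat1, a nuclear long noncoding RNA, rose 2.84-fold, at 10.22, 10.68 and 10.27 against 8.78, 8.29 and 9.59 (1.504, SE 0.264, adjusted p = 0.0300). Its 5 probe sets gave 0.58 to 1.504, and the call ended without any array but chow replicate 3 (adjusted p up to 0.156). Gsap, known for activating gamma-secretase, rose 2.68-fold from background, at 6.55, 5.76 and 6.15 against 4.63, 4.94 and 4.62 (1.42, SE 0.180, adjusted p = 0.00280). Pde4b, a phosphodiesterase that degrades cyclic AMP, rose 2.01-fold, at 8.10, 8.34 and 8.41 against 6.96, 7.67 and 7.20 (1.01, SE 0.190, adjusted p = 0.0465), and was lost without any array but chow replicate 2 (adjusted p up to 0.177). Nucb2, the precursor of nesfatin, fell 1.74-fold, at 5.28, 5.46 and 5.51 against 6.53, 6.21 and 5.91 (-0.80, SE 0.155, adjusted p = 0.0498). That fall was lost without any array but chow replicate 3 (adjusted p up to 0.223).

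A further 6 called genes fell outside the naming rule and are given because they complete the 36. Plk3, a stress-responsive polo-like kinase, rose 1.88-fold (0.91, SE 0.151, adjusted p = 0.0188), with high-fat arrays at 7.64 to 7.75 and chow arrays at 6.55 to 7.04. Gnpda1, which deaminates glucosamine-6-phosphate, rose 1.82-fold (0.86, SE 0.138, adjusted p = 0.0158), at 7.55 to 7.87 against 6.73 to 7.13. Slc22a7, the organic anion transporter OAT2, rose 1.64-fold (0.72, SE 0.134, adjusted p = 0.0465), at 9.03 to 9.17 against 8.24 to 8.46. Resf1, a factor of retroelement silencing, rose 1.64-fold (0.71, SE 0.106, adjusted p = 0.00885), though its 2 further probe sets gave 0.30 and 0.12. Slc26a4, the anion exchanger pendrin, was called with a difference of 0.57 (adjusted p = 0.0498), but both groups lay below the background level, at 4.31 to 4.45 against 3.74 to 3.95. Oaf rose by 0.46 (adjusted p = 0.0498). Without 1 array the highest adjusted p was 0.0968 for Plk3, 0.0953 for Gnpda1, 0.175 for Slc22a7, 0.0630 for Resf1, 0.213 for Slc26a4 and 0.243 for Oaf.

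The knockout livers give reference values that share the high-fat arrays with the diet comparison and so are no independent test of it. Against HDAC6 knockout, 11 genes were higher and 7 lower in high fat (0.145% of genes, 0.0888% higher and 0.0565% lower), and against HDAC9 knockout 33 were higher and 21 lower (0.436%, 0.266% and 0.169%). The first count was 8 without HDAC6 knockout replicate 2. The second was 10, 25 and 9 without high-fat replicates 1, 2 and 3, and 97, 25 and 23 without HDAC9 knockout replicates 1, 2 and 3. Cyp2b10 averaged 9.01 in chow, 9.17 in HDAC6 knockout and 9.01 in HDAC9 knockout against 5.34 in high fat, so its differences were -3.68, -3.83 and -3.67 in that order. Jun had differences of 2.59, 2.59 and 2.01, Dusp1 of 1.96, 2.03 and 1.26, Zfp36 of 1.49, 1.70 and 1.14, and Dnase2a of -2.02, -1.62 and -1.29, all past the threshold in each comparison. The same held for Stap1 (1.59, 1.31 and 1.55), Ces2a (-0.87, -1.07 and -1.14), Fabp2 (0.98, 1.08 and 0.90) and Gnpda1 (0.86, 0.94 and 0.83). Slc22a7 had differences of 0.72, 1.32 and 1.15 in the same order, and the HDAC6 knockout itself had -0.61 (adjusted p = 0.302) against chow.

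In other called genes a difference from at least 1 knockout did not pass. G6pc differed from chow by 0.91 but from the knockouts by 0.17 (adjusted p = 0.909) and 0.22 (adjusted p = 0.863). Malat1 differed from HDAC6 knockout by 0.30 (adjusted p = 0.895), Ntrk2 by 0.14 (adjusted p = 0.932) and Resf1 by 0.13 (adjusted p = 0.871). Rgs1 differed from HDAC9 knockout by 0.13 (adjusted p = 0.913). Slc25a25 had 0.94 and 0.75 against the knockouts (adjusted p = 0.402 and 0.508), and Csad -1.61 and -1.09 (adjusted p = 0.0572 and 0.236). The gap between 2 such contrasts is the difference between a knockout and chow, which in the same fit was 0.74 (adjusted p = 0.325) for G6pc and 1.20 (adjusted p = 0.292) for Malat1 in HDAC6 knockout and 1.04 (adjusted p = 0.0202) for Rgs1 in HDAC9 knockout. A genotype effect and a diet effect cannot be told apart there because the knockouts' diet is not in the labels.

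**Figure D5:**
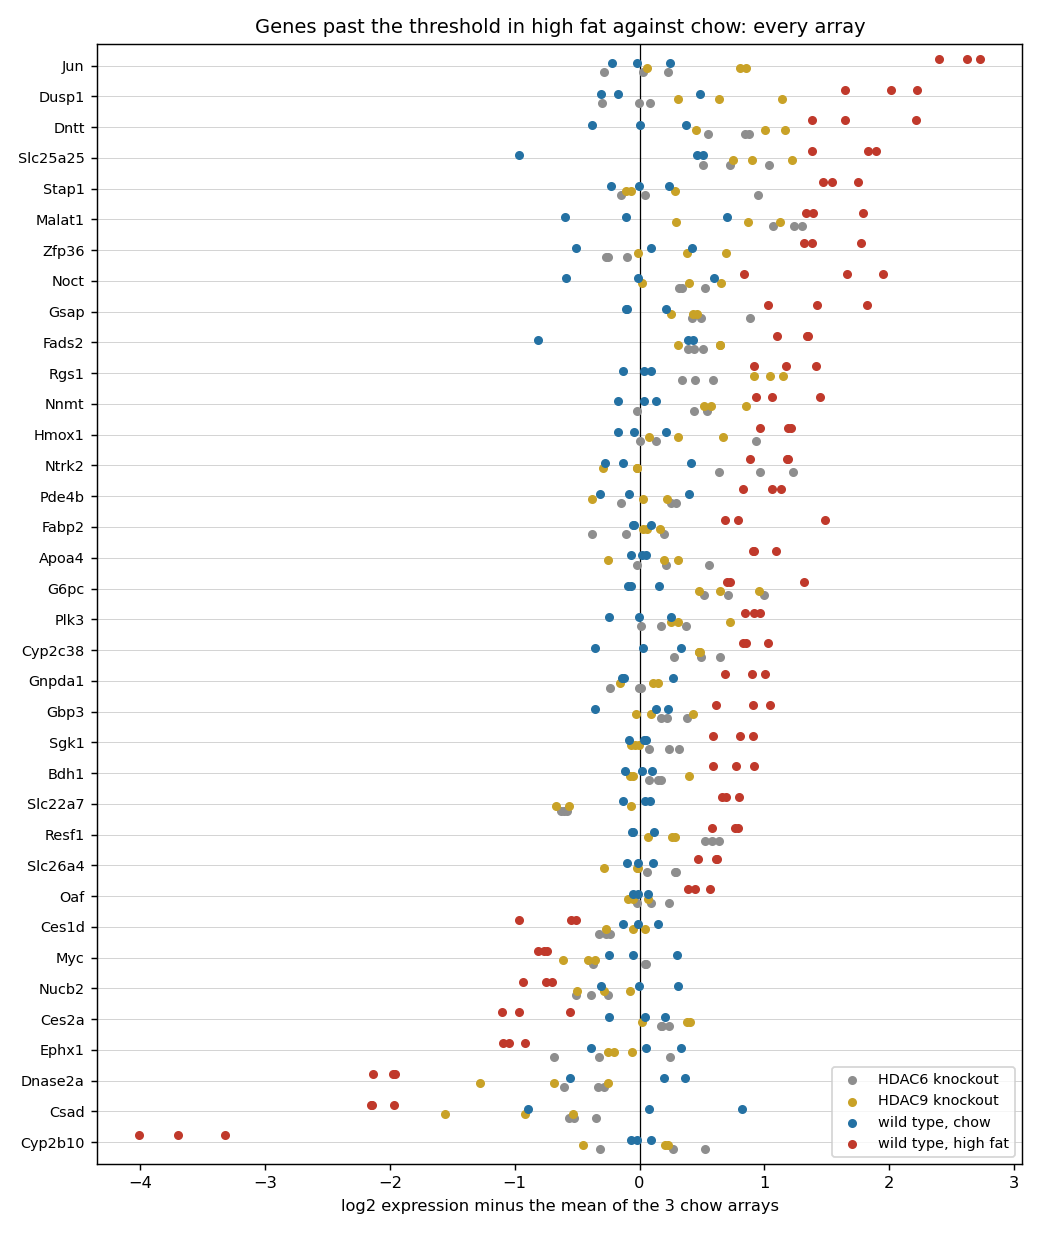
Log2 expression minus the mean of the 3 chow arrays (horizontal axis) for the 36 genes past the threshold, one point per array and coloured by group. In every gene the red high-fat points lie apart from the blue chow points; for Cyp2b10 and Jun they also lie apart from both knockouts, while for Ntrk2 they overlap with HDAC6 knockout.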

How the data were processed

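RNA from whole liver was labelled with biotin, per the labels, and read on Affymetrix Mouse430A arrays. The authors deposited log2 expression per probe set after RMA, per the submitters' processing notes; the software and chip definition are not given in the sources used here. RMA usually includes a quantile step, and a shift shared by all genes would then not be seen. No further normalization was applied. Of 22626 probe sets, 20380 had 1 gene symbol, 691 several and 1555 none in the platform annotation. Each of 12393 genes was represented by its probe set of highest mean over the 12 arrays, and 4956 genes had several to choose from. Of the 20380, 20351 matched the RefSeq table of GRCm38.p6, and 0 symbols were updated.

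A linear model with 4 group means was fitted to all 12 arrays in limma 3.58.1 (R 4.3.3; eBayes with a mean-variance trend, 14.32 degrees of freedom). Tests were two-sided, with Benjamini-Hochberg adjustment over all genes and a threshold of 0.05. The smallest exact permutation p for 3 arrays against 3 is 0.1, and the number of arrays limits the precision. Adjusted p-values of genes come from this fit, those given for an array left out from the same model refitted without it, and those of other probe sets from the model over all probe sets. Gene lists were only counted; their sums without single genes were added after seeing the data. The procedure was also run on simulated data drawn without effects shared by an array. That run cannot speak to the dependence on single arrays and is not used as support here. The planned 3′ to 5′ control probe check was not run, as control probe sets were not analysed here. Alternatives were other variance priors, normalizations, filters, probe-set rules and thresholds, the 6 wild-type arrays only, a replicate block and each array left out.

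Replicate numbers were not treated as pairs, because the labels do not say that they pair animals. Deviations of same-numbered arrays from their group means correlated at 0.0588, -0.0208 and 0.0084, which cannot settle whether the arrays were paired. Named genes are the 15 largest called rises and 15 largest falls, called members of a described list (up to 8) or else its 4 of smallest p, list regulators and defining cell markers. Others are said to be chosen after their values were seen. Members and lists were chosen with earlier results of these data known. Figures used Python 3.11.15, pandas 2.3.3 and matplotlib 3.10.9.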

Additional observations from a re-analysis of the deposited data

Results flagged for a closer look

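The gene table leaves out probe sets with no single gene symbol, and 5 of these passed the threshold in high fat against chow when all probe sets were tested together (limma, Benjamini-Hochberg over 22626). Among probe sets with no symbol 4 of 1555 passed (0.257%), among those with several symbols 1 of 691 (0.145%), and among those with 1 symbol 38 of 20380 (0.186%). All 5 were higher in every high-fat array than in every chow array. Probe set 1451716_at read 8.57, 9.03 and 9.07 against 7.75, 7.24 and 7.83 (log2 difference 1.28, adjusted p = 0.00872). Probe set 1451715_at read 5.59, 6.19 and 6.31 against 4.71, 3.90 and 4.998 (1.49, adjusted p = 0.0306). Probe set 1418949_at read 7.63, 8.41 and 7.96 against 6.02, 6.90 and 6.39 (1.57, adjusted p = 0.0142). Probe set 1418250_at read 8.02, 8.31 and 8.91 against 7.33, 7.31 and 7.30 (1.10, adjusted p = 0.0142), with chow arrays within 0.1 of each other. The annotation used here names no gene for these. Probe set 1455065_x_at is assigned to both Gm8615 and Gnpda1, so it names no single gene; it read 9.22, 9.48 and 9.53 against 8.14, 8.64 and 8.45 (1.00, adjusted p = 0.0130).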

How the results depend on the processing

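All 36 called genes kept their direction under every alternative that measured them and with each array left out. Against 36 calls (28 higher, 8 lower), averaging all probe sets of a gene gave 22 (18 and 4), an adjusted p under 0.01 gave 12 (10 and 2), and the variance prior without a trend and the removal of shared-probe suffixes each gave 5 lower. Leaving out 1 array gave 13 to 33 calls, 10 to 21 higher and 2 to 12 lower. Of the 36 genes, 21 were called from the 6 wild-type arrays only. The replicate block, whose numbers are not said to pair the arrays, gave 33 calls over 12 arrays, 29 of them shared, and 97 (53 higher, 44 lower) over 6 arrays, 35 of them shared. The cause was not tested. The share of higher calls was 77.8%, and 65.6% from the 6 wild-type arrays. Against HDAC6 knockout 18 calls became 8 to 24, and against HDAC9 knockout 54 became 9 to 97, with 1 array left out. Of 2557 pairs of gene and alternative, 2406 kept direction and side of the threshold, 109 lost and 38 gained the call and 4 changed sign. With 1 array left out, 998 of 1122 kept both and 11 changed sign. Genes that changed sign had not passed: Hnf4a 0.16 and Srebf2 0.019 with the mean of probe sets, Ghr 0.083 without shared-probe suffixes and Prss2 -0.012 after quantile normalization. With 1 array left out, Adipoq ran from -0.063 (without high-fat replicate 1) to 0.119, Alb from -0.015 to 0.0023 (high-fat 1), Ghr from -0.076 to 0.0043 (chow 2), Krt19 from -0.093 to 0.060 (chow 2; 0.020 without high-fat 1), Nr1i2 from -0.17 (chow 2) to 0.29, Pparg from -0.25 to 0.079 (chow 2), Prss2 from -0.060 (chow 3; also below 0 without high-fat 1) to 0.084, and S100a8 from -0.21 (high-fat 1; -0.11 without chow 1) to 0.39. Genes near background, 6 of the 36, have sizes limited by that floor.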
